A study of Ovis aries with 6 samples.

Results

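The adrenergic receptors are the cell-surface receptors for noradrenaline and adrenaline. They were chosen by gene name from 8 names, of which 6 matched a gene among the 24390 of the full count table: ADRB3, ADRB1, ADRA2A, ADRA1A, ADRA1D and ADRA1B. ADRA2B and ADRA2C were not analysed here. RNA came from perirenal fat, the depot around the kidney, of untreated wild-type Merino sheep. One group was 3 fetuses taken at 132 days of a gestation of 150 days, and the other was 3 lambs, each from a separate ewe and reared by it until weaning. The labels give the lambs' age as 80 days after birth, 89 days and 12 weeks. The lamb titles hold the letters VEH, which no label explains. The pregnant ewes and the flock were fed at their maintenance requirement, and each library is 1 animal.

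Beta receptors couple to the stimulatory G protein, raise cyclic AMP through adenylyl cyclase and activate protein kinase A, which in adipocytes starts lipolysis and, in brown adipocytes, heat production. Alpha-2 receptors couple to inhibitory G proteins, lower cyclic AMP and restrain lipolysis. Alpha-1 receptors couple to Gq, which activates phospholipase C and releases calcium. Perirenal fat of newborn sheep is a brown depot that becomes white as the lamb grows, and noradrenaline from sympathetic nerves is a main stimulus of its heat production.

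The libraries held 15907128 to 19150428 counts. Transcripts of the mitochondrial genome made up 27.5 to 40.7% of fetal counts and 7.37 to 8.29% of lamb counts. Levels are given as CPM, counts scaled to a common library size after TMM, a scaling set by the bulk of the genes. Stage differences are log2, lamb minus fetal, ± SE, with a Benjamini-Hochberg adjusted p from edgeR's quasi-likelihood test over 13624 genes, and a gene was called below 0.05. Adipocyte genes were abundant in every library: 9 of them summed to 14010 to 17470 CPM in fetal and 27950 to 38620 CPM in lamb libraries. Of these, 6 were called higher and 1, CEBPA, lower, while PLIN1 and DGAT2 did not pass the test. Without ADIPOQ, the most abundant, the other 8 summed to 4279 to 5634 CPM in fetal and 13910 to 19010 CPM in lamb libraries. Macrophage genes (10) summed to 182 to 407 CPM before birth and 1299 to 1613 CPM in lambs, most of the lamb sum being MRC1. Without MRC1 the other 9 summed to 140 to 338 and 469 to 480 CPM, and CSF1R, C1QB and C1QC did not pass the test. Urothelium genes (8) summed to 53.7 to 187 CPM before birth and to 0.4998 to 0.692 CPM in lambs, and skeletal muscle genes (5) to 30.4 to 117 and 7.26 to 11.1 CPM. The sums of endothelial genes (8) overlapped, at 1576 to 1969 and 1620 to 1734 CPM, with 1 gene called higher and 3 lower. Those of fibroblast genes (10) did too, at 6197 to 12210 and 7078 to 7950 CPM, with 4 called higher and 1 lower. Over all genes tested, 22.0% were called higher and 22.7% lower. Schwann cell genes (8) summed to 50.2 to 50.3 and 129 to 195 CPM, and S100B, which other cells also express, was the only one called higher. Adrenal cortex genes (4) summed to 19.7 to 31.9 and 32.4 to 45.7 CPM, most of it STAR, which did not pass the test. Without STAR the other 3 summed to 1.19 to 1.55 and 1.61 to 4.75 CPM. Kidney genes (8) summed to 1.19 to 4.07 and 1.73 to 2.10 CPM, with AQP2 and SLC34A1 at 0. In bulk tissue, fewer cells of a type and less RNA per cell cannot be told apart.

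The receptors moved in different directions between the stages. ADRA2A rose 7.37-fold and ADRB1 1.62-fold in lambs, ADRB3 fell 2.75-fold and ADRA1D 2.04-fold, and ADRA1A and ADRA1B did not pass the test. All 6 passed the filter on low counts. Of these, 4 were called, where 44.7% of all genes tested were, with 2 higher (22.0% of all genes) and 2 lower (22.7%). The CPM ranges of the stages were separate for the same 4 receptors, 2 in each direction, where 57.7% of all genes had separate ranges (28.2% with lambs higher, 29.5% with lambs lower). In the authors' deposited table, whose test is edgeR as built into CLC Genomics Workbench, 3 of the 6 had an adjusted p below 0.05. Of all 24390 genes there 22.3% did, a share over more genes than the 13624 tested here, so it does not compare with the 44.7%. ADRA2A (8.86e-15) and ADRB3 (1.41e-05) were among them, as here. ADRA1A (0.0350) was the remaining one in the authors' deposited table, while ADRB1 (0.117) and ADRA1D (0.0531) did not pass there.

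ADRB3 encodes the beta-3 receptor, the beta receptor most closely tied to adipocytes (ENSOARG00000001094, chromosome 26, 31849634 to 31851548 on Oar v3.1). Its counts were 753, 762 and 805 in fetuses 1 to 3, and 574, 242 and 264 in lambs 1 to 3. Scaled, these were 45.02, 56.1 and 48.0 CPM before birth and 28.4, 12.6 and 13.2 CPM after it. Every lamb lay below every fetus, and lamb 1 stood apart from the other lambs, 2.26-fold above the lowest. Mean levels were 49.7 ± 5.70 and 18.04 ± 8.95 CPM (SD, n = 3), a log2 difference of -1.46 ± 0.31 (edgeR adjusted p = 0.00698). Of the genes tested, 8.19% had a lower log2 difference. The call held under all 16 alternatives run, with differences from -1.94, without lamb 1, to -0.98, with scaling by library totals.

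ADRB1 encodes the beta-1 receptor, best known from the heart and also present in adipocytes (ENSOARG00000013772, chromosome 22, 33474854 to 33476247). It had 66, 50 and 62 counts in fetuses, or 3.95, 3.68 and 3.70 CPM, and 128, 89 and 149 in lambs, or 6.32, 4.62 and 7.45 CPM. The fetuses lay close together, and the lowest lamb, lamb 2, was still above the highest fetus. The log2 difference was 0.70 ± 0.23 (edgeR adjusted p = 0.0394). It passed in 9 of the 16 alternatives. Among the others, it did not pass on leaving out fetus 1 (adjusted p = 0.0868), fetus 2 (0.0969), fetus 3 (0.0982), lamb 1 (0.0866) or lamb 3 (0.111), nor with limma-voom (0.0542). Adjusted p ran from 0.00594 to 0.111 over them, and ADRB1 was higher in lambs in all 16.

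**Figure D1:**
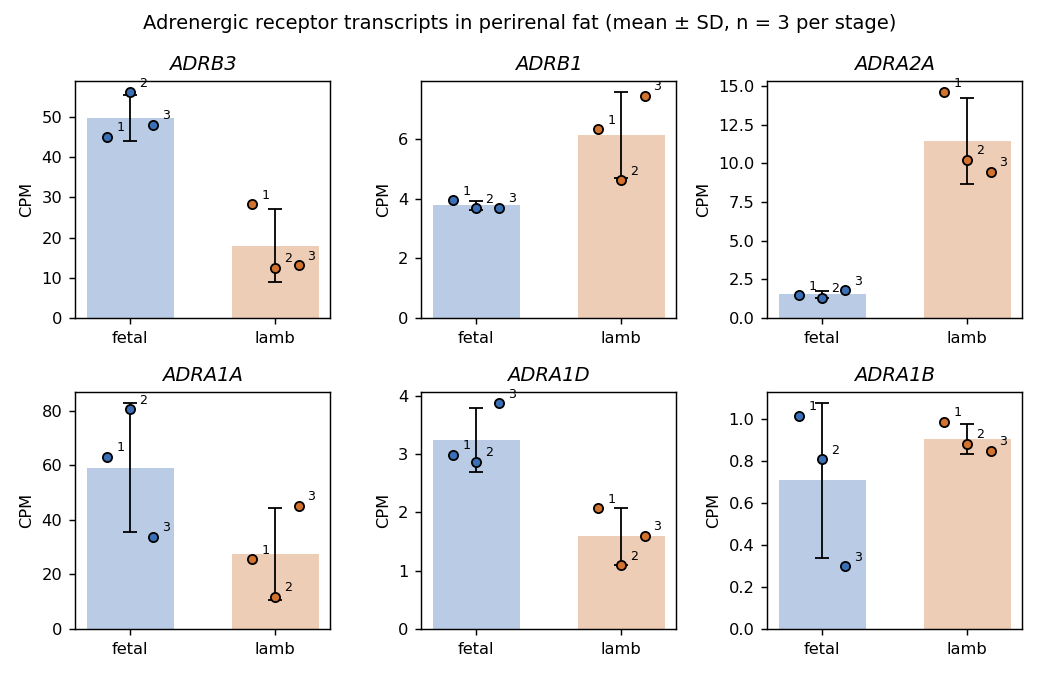
CPM of the 6 receptors in fetal and lamb libraries, on linear axes from 0 that differ between panels. Points are libraries numbered by replicate, bars means and whiskers SD (n = 3); the points of the stages are separate for ADRB3, ADRB1, ADRA2A and ADRA1D and overlap for ADRA1A and ADRA1B.

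ADRA2A encodes the alpha-2A receptor, through which catecholamines restrain lipolysis in fat cells and noradrenaline release from nerve endings (ENSOARG00000010704, chromosome 22, 30516666 to 30517993). Its counts were 25, 18 and 30 in fetuses, or 1.495, 1.32 and 1.79 CPM. In lambs they were 295, 197 and 189, or 14.6, 10.2 and 9.45 CPM. The stages were far apart compared with the spread inside either, where the highest library was 1.35-fold (fetal) and 1.54-fold (lamb) above the lowest. The log2 difference was 2.88 ± 0.25 (edgeR adjusted p = 0.0001635), and 1.34% of the genes tested had a higher one. The call held under all 16 alternatives, at 2.67 to 3.34. On the log2 scale the summed adipocyte genes differed by 1.14 (1.73 without ADIPOQ) in the same direction. The summed macrophage genes differed by 2.36 (1.05 without MRC1), also in that direction. The part of either cell type in the receptor's difference was not tested.

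ADRA1A encodes the alpha-1A receptor, a Gq-coupled receptor of smooth muscle that brown adipocytes also carry (ENSOARG00000009752, chromosome 2, 38638174 to 38749450). Its counts were 1057, 1096 and 566 in fetuses, or 63.2, 80.6 and 33.8 CPM, and 517, 227 and 905 in lambs, or 25.5, 11.8 and 45.2 CPM. It was uneven within both stages, and lamb 3, at 3.84 times the lowest lamb, lay above fetus 3. The log2 difference was -1.10 ± 0.48 and did not pass (edgeR adjusted p = 0.0993). It passed with DESeq2's Wald test (0.0318) and without lamb 3 (-1.66, adjusted p = 0.0273), and adjusted p ran from 0.0273 to 0.267 over the 16 alternatives. The 11 smooth muscle and pericyte genes summed to 990, 807 and 718 CPM in fetuses 1 to 3 and to 603, 1736 and 703 CPM in lambs 1 to 3. The sum of lamb 2 was made mostly by contractile genes, MYH11 (589 CPM), DES (331), TAGLN (289) and CNN1 (150), each highest there. The other listed genes were mixed in lamb 2. LMOD1 (25.5) and PDGFRB (159.6) were highest there, RGS5 (33.2) and NOTCH3 (51.8) lowest, and KCNJ8, CSPG4 and ABCC9 in between. ADRA1A was lowest in lamb 2, and the part of smooth muscle or pericytes in its level was not tested.

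ADRA1D encodes the alpha-1D receptor, known from arterial smooth muscle (ENSOARG00000000251, chromosome 13, 50244852 to 50271004). It had 50, 39 and 65 counts in fetuses, or 2.99, 2.87 and 3.88 CPM, and 42, 21 and 32 in lambs, or 2.08, 1.09 and 1.60 CPM. Every lamb lay below every fetus, lamb 1 least so. The log2 difference was -1.03 ± 0.31 (edgeR adjusted p = 0.0302). It no longer passed without fetus 1 (adjusted p = 0.0589), fetus 2 (0.0574), fetus 3 (0.1065), lamb 2 (0.0734) or lamb 3 (0.0667), nor with library totals (-0.58, adjusted p = 0.22). Adjusted p ran from 0.0197 to 0.22 over the 15 alternatives that tested it, and the difference was negative in all.

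ADRA1B encodes the alpha-1B receptor, the remaining Gq-coupled subtype (ENSOARG00000010320, chromosome 5, 68843926 to 68844813). Its gene model spans 888 bases, and its level may be understated if the transcript extends beyond the model, which was not tested. It had 17, 11 and 5 counts in fetuses, or 1.02, 0.809 and 0.298 CPM, and 20, 17 and 17 in lambs, or 0.988, 0.882 and 0.850 CPM. The fetal range enclosed the lamb range, with fetus 3 low. The log2 difference was 0.36 ± 0.46 (edgeR adjusted p = 0.553), and without fetus 3 it was -0.01. None of the 6 receptor genes overlaps another gene of the table.

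Changes of one receptor relative to another were read within each library as the log2 ratio of their counts, 0.5 added to each, which no library scaling touches. ADRB3 exceeded ADRB1 by 3.50, 3.92 and 3.69 in fetuses 1 to 3 and by 2.16, 1.44 and 0.82 in lambs 1 to 3. Every lamb had a lower ratio than any fetus, by 2.23 on average, or 4.69-fold. The log2 ratio of ADRA2A to ADRB3 was -4.88, -5.37 and -4.72 in fetuses and -0.96, -0.30 and -0.48 in lambs. It was higher in every lamb, by 4.41 on average, or 21.3-fold. Both differences had p = 0.1 in a two-sided exact permutation test, which cannot go lower with 3 libraries a stage (0.15 adjusted over the 3 ratios compared). The ratio of ADRA1A to ADRB3 was 0.49, 0.52 and -0.51 in fetuses and -0.15, -0.09 and 1.78 in lambs. It overlapped between the stages (difference 0.34, two-sided exact permutation p = 0.8, adjusted 0.8), and its difference was -0.29 without lamb 3.

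**Figure D2:**
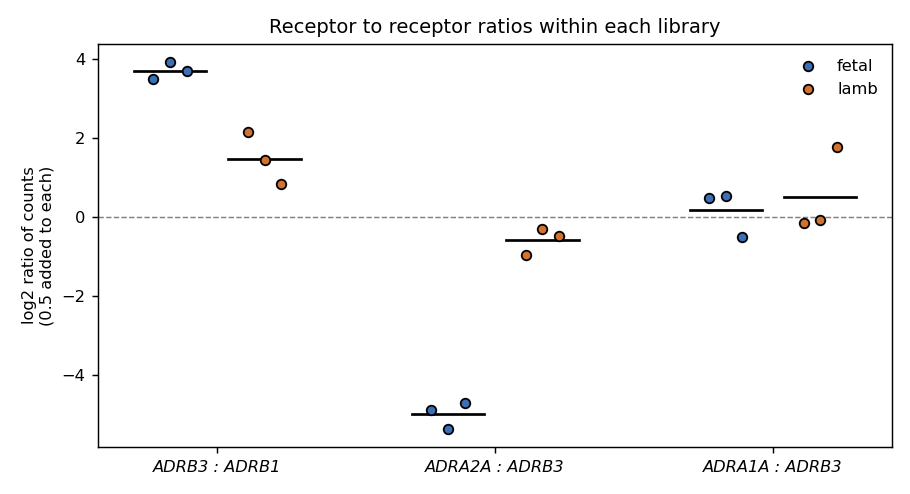
Log2 ratio of the counts of 2 receptors within each library, for 3 pairs; points are libraries, short lines stage means, and the dashed line marks equal counts. Fetal and lamb points are separate for ADRB3 to ADRB1 and for ADRA2A to ADRB3, and overlap for ADRA1A to ADRB3.

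Levels of different receptors were compared per length, by multiplying each library's CPM with the gene's ratio of the authors' RPKM means to unscaled CPM over both stages, an approximation chosen after the files were seen. On this length-scaled CPM, ADRB3 was highest of the 6 in fetuses, at 34.4 ± 3.95, ahead of ADRA1A at 15.02 ± 6.01 (SD, n = 3). ADRA1D (2.57 ± 0.44), ADRB1 (2.15 ± 0.08), ADRA2A (0.952 ± 0.146) and ADRA1B (0.584 ± 0.305, on its short gene model) followed. Neighbours in this order had separate ranges, except ADRA2A and ADRA1B. In lambs the length-scaled order was ADRB3 (12.5 ± 6.20), ADRA2A (7.08 ± 1.71), ADRA1A (6.98 ± 4.27), ADRB1 (3.49 ± 0.81), ADRA1D (1.26 ± 0.39) and ADRA1B (0.747 ± 0.060). There the ranges of neighbours overlapped from ADRB3 down to ADRB1, although ADRB3 was above ADRA2A in 3 of 3 lambs. The RPKM means of the authors' deposited table, which set the length factors and so are no separate check of the order, had ADRB3 at 29.4 in fetuses and 14.4 in lambs and ADRA2A at 0.831 and 8.35.

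**Figure D3:**
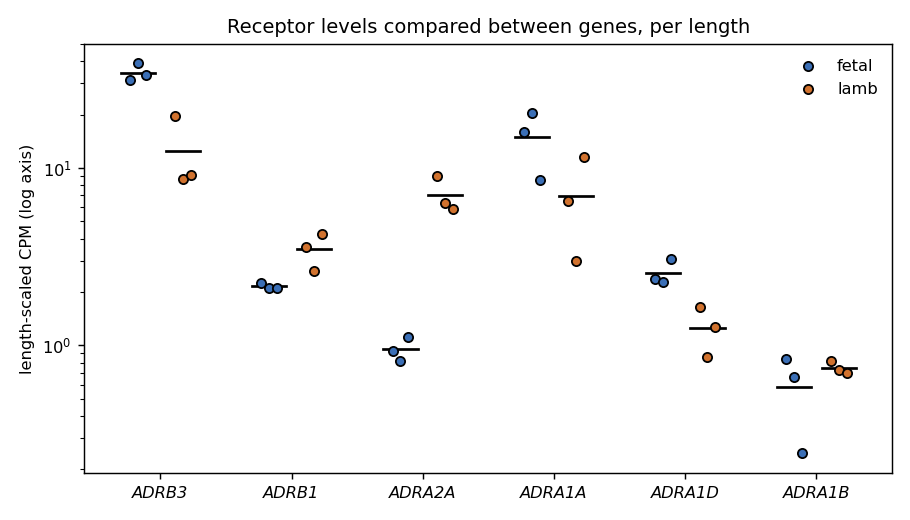
Length-scaled CPM of the 6 receptors on a log axis, fetal and lamb libraries side by side; points are libraries and short lines means. ADRB3 has the highest mean in both stages, and ADRA2A lies below ADRB1 in fetuses and above it in lambs.

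The genes closest in pattern to each receptor were found among 11225 genes, as a description. Distance was the root mean square difference of centred log2 values over the 6 libraries, with 0.5 added to each CPM. The addition shrinks differences of genes at low CPM, such as ADRA2A in fetuses. Closest to ADRB3 were PSRC1 (0.085), SLC26A8 (0.178) and DGAT1 (0.149), an enzyme of the last step of triacylglycerol synthesis. DGAT1 stood at 257, 339 and 318 CPM in fetuses and 143, 82.9 and 91.4 CPM in lambs, with lamb 1 the highest lamb as for ADRB3. Closest to ADRA2A were ZDHHC13 (0.128), SEPP1 (0.15), which encodes selenoprotein P, and CIDEC (0.163), which encodes a lipid droplet protein. For ADRB1 they were SUCO (0.055), ZDHHC20 (0.057) and OSTC (0.060), and for ADRA1D they were ITPRIPL1 (0.056), CDKL2 (0.085) and LEPRE1 (0.089). The distances for ADRA1A were wider, with C6 at 0.252, ANG-1 at 0.282 and KCNK7 at 0.338.

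Genes that make, store and clear catecholamines stand upstream of the receptors. Of 14 listed, 8 were tested, with 3 higher, 1 lower and 4 not passing, near the 44.7% called over all genes (median log2 difference 0.22, where that of all genes was -0.01). SLC22A3, a transporter that takes up catecholamines outside nerves, fell from 85.7 ± 12.4 to 9.80 ± 3.73 CPM (log2 difference -3.13 ± 0.27, edgeR adjusted p = 0.000151). MAOA, which degrades noradrenaline, rose from 49.5 ± 9.99 to 184.9 ± 54.8 CPM (1.90 ± 0.24), and GCH1, which makes the cofactor of TH, rose by 1.94 ± 0.27. TH itself, the rate-limiting enzyme of catecholamine synthesis, averaged 4.17 ± 1.79 and 5.27 ± 2.02 CPM (0.33 ± 0.40, edgeR adjusted p = 0.526). DBH, which makes noradrenaline, was at 0 counts in all 6 libraries, where 3 counts would be 0.157 to 0.189 CPM before TMM. Summed over 12 genes, sympathetic nerve and adrenal medulla markers were at 15.8 to 19.9 CPM in fetal and 9.19 to 17.9 CPM in lamb libraries, and without CHGA at 5.08 to 9.27 and 3.66 to 11.5 CPM. These are RNA levels within the fat, and neither its nerve supply nor noradrenaline was measured.

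Of 9 G protein alpha subunits tested, 3 were higher (22.0% over all genes), 2 lower (22.7%) and 4 not passing. With library totals 6 were higher and 0 lower, where 5598 and 1459 of all 13624 genes were. GNAI1, an inhibitory subunit, rose from 9.47 ± 1.36 to 38.02 ± 9.68 CPM (2.00 ± 0.21, edgeR adjusted p = 0.000348). GNAS, the stimulatory subunit, averaged 1963 ± 13.1 and 1476 ± 95.8 CPM (-0.41 ± 0.14, adjusted p = 0.0465), with no call under 10 of 16 alternatives, including the removal of any 1 library, and 0.06 with library totals. The related GNAL was at -0.43 ± 0.15 (adjusted p = 0.0455) and at 0.03 with library totals, and no longer passed without fetus 1, fetus 3, lamb 2 or lamb 3 (adjusted p up to 0.909 over the alternatives). Receptor kinases and arrestins switch off stimulated receptors. Of 7 tested, 2 were higher (22.0% over all genes), 2 lower (22.7%) and 3 not passing. With library totals 4 were higher and 0 lower, beside the same 5598 and 1459 over all genes. The kinase gene GRK5 rose from 35.02 ± 3.53 to 76.0 ± 12.5 CPM (1.12 ± 0.15) and passed in all 16 alternatives. ADRBK2, a beta-adrenergic receptor kinase, was at -0.85 ± 0.17 (adjusted p = 0.00530) and did not pass with library totals (0.120). ADRBK1, the other such kinase, was higher at 0.36 ± 0.10 (edgeR adjusted p = 0.0202) and passed in 12 of 16 alternatives. Of 12 RGS genes, whose proteins shorten G protein signals, 2 were higher, 2 lower and 8 not passing, beside the same shares over all genes. RGS12 at -1.10 ± 0.16 and RGS3 at 0.70 ± 0.15 were both called in all 16 alternatives.

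Downstream, 7 adenylyl cyclases were tested, with 2 higher (22.0% over all genes), 1 lower (22.7%) and 4 not passing. ADCY6 fell from 405.3 ± 50.3 to 87.3 ± 44.5 CPM (-2.22 ± 0.34, edgeR adjusted p = 0.00174), while ADCY4 rose from 67.4 ± 6.97 to 112.3 ± 20.4 CPM (0.74 ± 0.16). Of 10 protein kinase A subunits and anchors, 2 were higher, 4 lower and 4 not passing, beside the same shares over all genes (median -0.07). PRKAR2B, a regulatory subunit abundant in fat, fell from 889 ± 88.6 to 214 ± 45.8 CPM (-2.05 ± 0.19), and AKAP1, an anchor at mitochondria, from 289.6 ± 44.5 to 64.7 ± 10.4 CPM (-2.16 ± 0.18). The anchor gene AKAP12 rose from 99.9 ± 30.4 to 824 ± 361 CPM (3.04 ± 0.41). Of 15 cyclic nucleotide phosphodiesterases, which end the signal, 7 were higher (22.0% over all genes), 3 lower (22.7%) and 5 not passing (median 0.39). With library totals 9 were higher and 0 lower, where 5598 and 1459 of all 13624 genes were. PDE1A rose from 24.9 ± 13.7 to 114.5 ± 25.7 CPM (2.20 ± 0.39) and PDE4D from 1.29 ± 0.04 to 4.68 ± 1.72 CPM (1.85 ± 0.32). PDE3B, the most abundant of the 15, averaged 432.5 ± 48.9 and 478.7 ± 69.3 CPM and did not pass (0.15 ± 0.16, edgeR adjusted p = 0.481). Of 13 Gq effectors, 2 were higher, 2 lower and 9 not passing, beside the same shares over all genes. PLCB1, a phospholipase C, fell from 72.9 ± 8.42 to 14.8 ± 2.25 CPM (-2.30 ± 0.15), and PRKCA, a protein kinase C, rose by 1.04 ± 0.14.

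**Figure D4:**
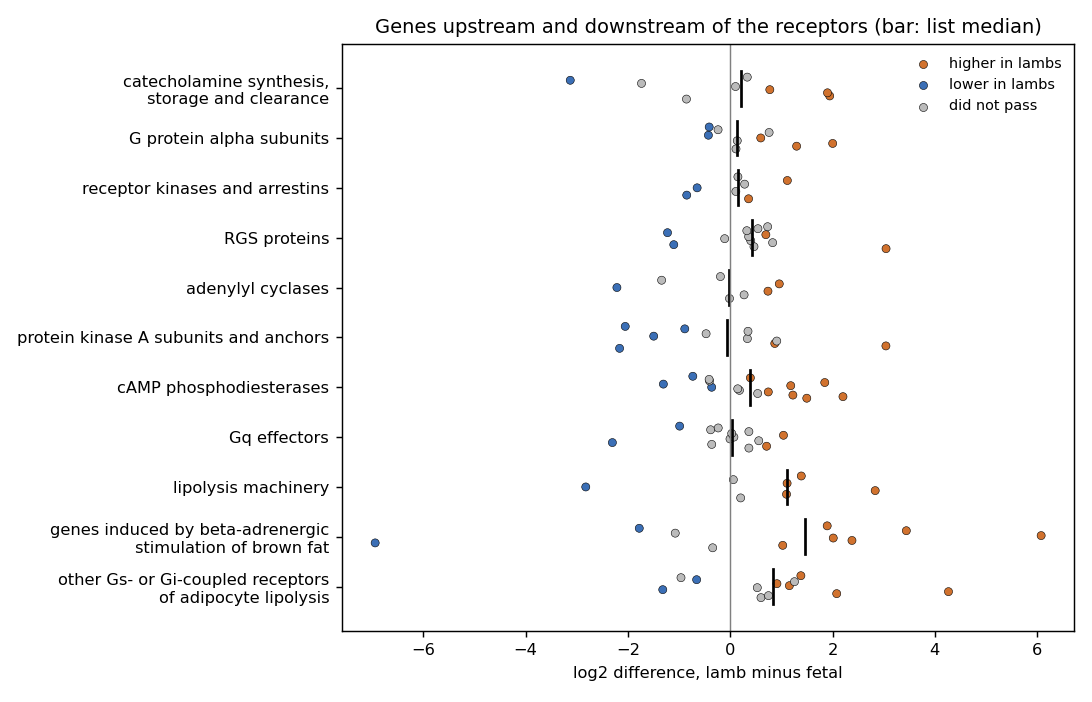
Log2 difference, lamb minus fetal, of the tested genes in 11 lists around the receptors, orange where called higher, blue where called lower and grey where not past the test; the black bar is the list median. Each list has called genes on both sides of 0, and the 2 highest medians are 1.46 (induced genes) and 1.10 (lipolysis).

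Of 10 tested genes known to be induced by beta-adrenergic stimulation of brown fat, 6 were higher (22.0% over all genes), 2 lower (22.7%) and 2 not passing (median 1.46). UCP1, which uncouples respiration to make heat, fell from 1633 ± 530.3 to 476 ± 77.2 CPM (-1.78 ± 0.27, edgeR adjusted p = 0.00154). DIO2, which activates thyroid hormone, fell from 23.6 ± 4.52 to 0.186 ± 0.081 CPM (-6.94 ± 0.31). PPARGC1A, a coactivator of mitochondrial genes, averaged 70.05 ± 19.2 and 33.2 ± 18.7 CPM and did not pass (-1.07 ± 0.39, edgeR adjusted p = 0.0583), although it did without lamb 3 and with 4 other alternatives (adjusted p from 0.00797 to 0.171 over all 16). NR4A3 and SIK1, which respond to cyclic AMP among other stimuli, rose by 6.08 ± 0.31 and 3.44 ± 0.17. Of 7 lipolysis genes, 4 were higher, 1 lower and 2 not passing, beside the same shares over all genes (median 1.10). PNPLA2, the first lipase of triacylglycerol breakdown, rose from 224 ± 27.8 to 588 ± 22.2 CPM (1.39 ± 0.14), and G0S2, its inhibitor, fell from 82.8 ± 12.0 to 11.7 ± 7.60 CPM (-2.82 ± 0.47). LIPE was not analysed here.

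Of 12 other receptors that act on adipocyte cyclic AMP, 5 were higher (22.0% over all genes), 2 lower (22.7%) and 5 not passing (median 0.83). With library totals 9 were higher and 0 lower, where 5598 and 1459 of all 13624 genes were. ADORA2B, an adenosine receptor, rose from 1.84 ± 0.35 to 7.80 ± 2.34 CPM (2.08 ± 0.30, edgeR adjusted p = 0.00123). PTGER3, a prostaglandin E receptor that lowers cyclic AMP, averaged 84.0 ± 7.92 and 53.3 ± 6.33 CPM (-0.66 ± 0.13, adjusted p = 0.00569) and did not pass with library totals (0.383). The other genes called higher were FFAR4 (4.27 ± 1.09, lamb mean 3.77 CPM), SUCNR1 (1.38 ± 0.32), HCAR1 (1.16 ± 0.24) and LPAR1 (0.91 ± 0.21). GCGR (-1.32 ± 0.38) was the other one called lower. The list holds receptors that raise cyclic AMP and receptors that lower it, and a shift between these kinds was not tested.

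**Figure D5:**
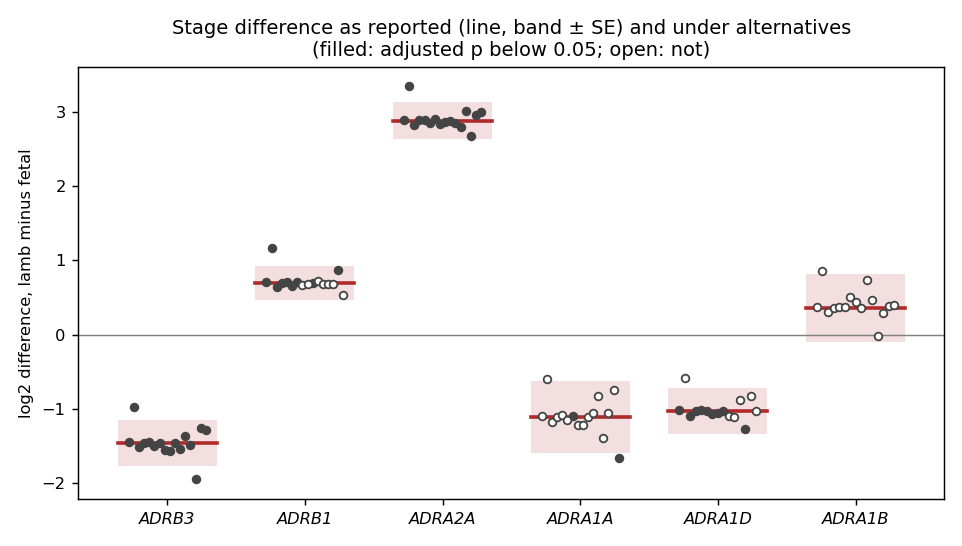
Log2 difference, lamb minus fetal, of the 6 receptors as reported (red line, band ± SE) and under the processing alternatives (16 points each, 15 for ADRA1D and ADRA1B), filled where the adjusted p is below 0.05. All points of ADRB3 and ADRA2A are filled, 9 each of ADRB1 and ADRA1D, 2 of ADRA1A and 0 of ADRA1B.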

How the data were processed

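Per the labels, tissue was taken within 10 minutes of death, RNA integrity scores were above 9, and 6 single-end 50 bp libraries shared 1 flowcell. Per the series' design text, the authors aligned reads to Ensembl models of Oar v3.1 (release 74) in CLC Genomics Workbench 7.0. Per the file headers they deposited counts per gene, stage means of RPKM, and their edgeR test as a signed fold score with p-values. The sources used here do not state how strand or multiply placed reads were treated. The 12 per-library RPKM columns were not used, since a fetal header is repeated among them.

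The counts went into edgeR 4.0.16 (R 4.3.3): filterByExpr, TMM, quasi-likelihood F test, no covariate. SE is the absolute log2 difference over the root of F. Ratios were tested by exact permutation (SciPy 1.17.1). Alternatives used DESeq2 1.42.0, limma 3.58.1, other scalings and filters, a replicate block and each library left out. The pipeline was tested on simulated data. Members, lists and tests were chosen with earlier results of these data known. Named genes were all receptors; per pathway list, from up to 2 called genes with the largest change in each direction at 1 CPM or more in the higher stage; the 3 genes closest to each receptor of at least 1 CPM; and UCP1, DIO2, PPARGC1A, LIPE, PNPLA2, GNAS and TH. Beyond these, HCAR1, SUCNR1, LPAR1 and PDE3B were named after seeing the data. Of a symbol at several loci, the one with most counts was taken, a rule set after seeing the data. A further receptor gene of the family is not reported here. Depth was 15907128 to 19150428 counts per library.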

Additional observations from a re-analysis of the deposited data

How the results depend on the processing

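Of the 6 receptors, 4 were called as reported and 3 to 5 under the 10 alternatives that kept all libraries. When 1 library was left out, 2 to 3 were called, and 2 without any 1 fetal library. The called share over all genes was 44.7% as reported and 33.4 to 51.8% under the 10 alternatives. It was 34.4 to 40.8% with 1 library left out, and 34.4 to 35.8% where that was a fetal library. The ratios of ADRB3 to ADRB1 (-2.57 to -1.90) and of ADRA2A to ADRB3 (4.23 to 4.60) kept their direction on leaving out each library, while that of ADRA1A to ADRB3 ran from -0.29 to 0.67. The log2 difference of ADRA1B ran from -0.014 to 0.73 on leaving out 1 library. With library totals the median over all genes went from -0.01 to 0.46 (log2) and the share of called genes that were higher from 49.25% to 79.3%; GNAS was then at 0.061 and GNAL at 0.032. The calls higher and lower were then 6 and 1 for RGS genes, 4 and 3 for protein kinase A genes and 5 and 1 for Gq effectors. Over all 13624 genes tested they were 5598 and 1459. The replicate numbers did not pair the samples: deviations of same-numbered libraries correlated at -0.01, -0.119 and 0.036. With the replicate block 5353 genes were called in place of 6095, and 3 receptors, ADRB1 being lost (adjusted p = 0.0697). For the ratios the block gave the same differences (-2.23, 4.41 and 0.34) with exact sign-flip p of 0.25, 0.25 and 1, where 0.25 is the smallest possible. Taking the first locus of a repeated symbol, an alternative chosen after seeing the data, dropped PRKAR1A, which left 9 protein kinase A genes tested, 2 higher and 4 lower, with a median of -0.47 in place of -0.07. A filter of 5 CPM in 3 libraries left ADRA1D and ADRA1B untested. Without the most abundant gene of each marker list, also chosen after seeing the data, the log2 difference of the summed nerve genes was 0.068 in place of -0.60 and that of fibroblast genes 0.055 in place of -0.29; Schwann cell genes were at 0.02 in place of 1.73, macrophage genes at 1.05 in place of 2.36 and adipocyte genes at 1.73 in place of 1.14, and the other 6 lists moved by less than their spread between libraries. ADRA1B had the lowest counts of the receptors, 5 to 20 per library, with an SE of 0.46, and ADRA1A, at 227 to 1096 counts, the largest SE, 0.48. Causes were not tested.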
